A study of Mus musculus with 9 samples.

Results

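The genes described here are 10 components of Notch signalling: the receptors Notch1, Notch2 and Notch3, the ligands Dll1, Dll4, Jag1 and Jag2, and the target genes Hes1, Hey1 and Hey2. They were named by their role in the pathway, and all 10 were found among the 22359 protein-coding genes of the mm9 annotation used. In Notch signalling a ligand on one cell binds a receptor on its neighbour, the receptor is cut, and its intracellular part moves to the nucleus, where it acts with the DNA-binding protein RBPJ. Hes1, Hey1 and Hey2 encode basic helix-loop-helix repressors that are switched on in this way. In the embryonic pharyngeal apparatus and outflow tract the pathway is known for its part in second heart field, endothelial and arch artery development.

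Accessible chromatin was profiled in sorted GFP-positive, DAPI-negative cells with ATAC-seq, an assay that reads out where a transposase can cut the DNA. The cells came from pooled Swiss Webster mouse embryos at E9.5. The 9 peak lists, 3 per group, were analysed. Cells of the Mesp1-Cre Ctrl group (Mesp1Cre;Rosa26-GFPflox/+) carry the GFP label of the Mesp1 lineage, which marks mesoderm. Cells of the Tbx1-Cre Ctrl group (Tbx1Cre;Rosa26-GFPflox/+) carry that of the Tbx1 lineage, which includes mesodermal, endodermal and ectodermal cells. The Tbx1-Cre cKO group (Tbx1Cre/flox;Rosa26-GFPflox/+) has the same label with a floxed second copy of Tbx1, which encodes a T-box transcription factor. The Cre allele itself disrupts a copy of Tbx1, so the Tbx1-Cre Ctrl embryos were heterozygous and no group had a Tbx1-Cre background with 2 intact copies. The labels give the tissue as pharyngeal apparatus and heart, with the back for the 6 Tbx1-Cre libraries, while the methods of the study describe a dissection without the heart, so tissue and lineage cannot be told apart between Mesp1-Cre and Tbx1-Cre cells. Cells were pooled, so fewer cells of a type and less open chromatin per cell cannot be told apart in any result below.

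A peak was counted at a gene when its midpoint lay in the gene body or within 50 kb on either side. A promoter peak had its midpoint within 1 kb of a coding transcription start site (TSS) of that gene, and a distal peak lay more than 1 kb from every annotated TSS. Peaks close to the TSS of a neighbour or of a non-coding transcript made up the remaining class. The lists held 42650, 25485 and 30535 peaks in Mesp1-Cre Ctrl replicates 1 to 3, 49490, 43298 and 47013 in Tbx1-Cre Ctrl and 29251, 24042 and 19772 in cKO. The sample summary of the study does not list a library with the length of the longest Mesp1-Cre list. Read depth is unknown, so list length stands in for it, and a site without a called peak need not have been closed. Distal peaks made up 63.9% to 66.1% of the Tbx1-Cre Ctrl lists, 37.0% to 50.7% of the cKO lists and 47.0% to 62.2% of the Mesp1-Cre lists. At Tbx1 itself, promoter peaks numbered 1, 1 and 2 in Tbx1-Cre Ctrl, 0 in each cKO library and 1, 1 and 0 in Mesp1-Cre Ctrl. At marker promoters, an average of 75% of 8 mesodermal, 45.8% of 8 epithelial and 50% of 8 endothelial genes held a peak in Tbx1-Cre Ctrl. The corresponding means were 41.7%, 12.5% and 25% in cKO and 58.3%, 33.3% and 37.5% in Mesp1-Cre Ctrl. Among the defining markers, Isl1 held a promoter peak in all 9 libraries, while Nkx2-5 and Mesp1 each held one in 1 library only. A mean of 27.8% of 6 neural crest and otic promoters held a peak in the Tbx1-Cre Ctrl libraries, against 11.1% for cKO and 16.7% for Mesp1-Cre, and the means for 4 blood gene promoters were 33.3%, 33.3% and 41.7%. The 22359 promoters of all genes gave 60.8%, 54.6% and 58.3%. The part of cell composition in the results below was not tested.

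The first question was how many distal peaks remained at Notch loci in cells with the floxed Tbx1 allele. Summed over the 10 loci, the Tbx1-Cre Ctrl libraries held 69, 43 and 55 distal peaks and the cKO libraries 31, 19 and 16. The 2 groups did not overlap, and the cKO mean of 22 ± 7.94 (SD, n = 3) was 39.5% of the Ctrl mean of 55.7 ± 13.0. The whole lists of distal peaks stood in nearly the same ratio, with cKO at 35.6% of Ctrl. The Mesp1-Cre Ctrl libraries held 46, 19 and 25 distal peaks at these loci, 53.9% of the Tbx1-Cre Ctrl mean, beside 59.8% for the whole lists. Replicate 1 of Mesp1-Cre Ctrl, the longest list of its group, lay inside the Tbx1-Cre Ctrl range and the other two lay below it.

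**Figure D1:**
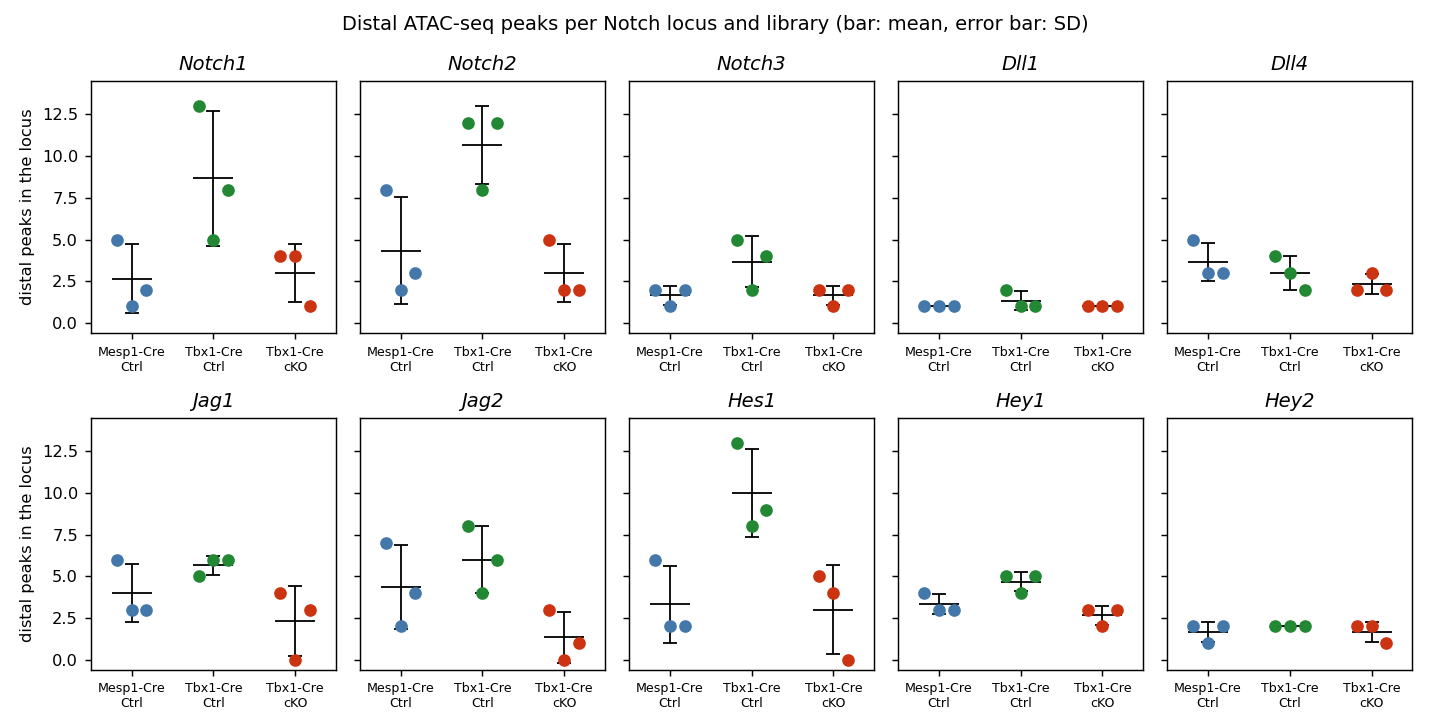
Number of distal peaks (y axis) in each Notch locus for the 3 libraries of each group (points), with the group mean (horizontal bar) and SD (error bar). Notch1, Notch2 and Hes1 held 5 to 13 distal peaks in each Tbx1-Cre Ctrl library and 0 to 5 in each cKO library, while Dll1, Dll4 and Hey2 held 1 to 4 and 1 to 3.

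The receptors had the lowest share of distal peaks left of the 3 roles. Their 3 loci together held 30, 15 and 24 distal peaks in Tbx1-Cre Ctrl, 11, 7 and 5 in cKO and 15, 4 and 7 in Mesp1-Cre Ctrl. The cKO mean was 33.3% of the Tbx1-Cre Ctrl mean. The 4 ligand loci held 19, 14 and 15 against 10, 4 and 7 in cKO (43.8%), and the 3 target loci 20, 14 and 16 against 10, 8 and 4 (44.0%). The whole lists of distal peaks gave 35.6%, close to the receptor value. Genes of a role also differed: the receptor Notch3 had means of 3.67 in Tbx1-Cre Ctrl and 1.67 in cKO, the ligand Jag2 6 and 1.33. The differences between the roles were not tested.

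Notch1 (ENSMUSG00000026923.8, chr2:26313423-26372183, minus strand) encodes a receptor with broad roles in heart and vessel development. Its locus held 13, 5 and 8 distal peaks in Tbx1-Cre Ctrl and 4, 4 and 1 in cKO. Every cKO library lay below every Ctrl library, with means of 3.00 ± 1.73 and 8.67 ± 4.04 (n = 3 each), although Ctrl replicate 2 exceeded the highest cKO count by 1 peak only. The exact permutation test gave p = 0.1, the smallest value that 3 libraries against 3 allow, and a Benjamini-Hochberg (BH) adjusted p of 0.383 over all genes tested. The Mesp1-Cre Ctrl libraries held 5, 1 and 2 distal peaks, and their highest library equalled the lowest Tbx1-Cre Ctrl library.

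Notch2 (ENSMUSG00000027878.9, chr3:97817461-97954290, plus strand), a receptor of neural crest and vascular smooth muscle among other tissues, spans the longest window of the 10, 237 kb. It held 12, 8 and 12 distal peaks in Tbx1-Cre Ctrl and 5, 2 and 2 in cKO. This was the largest difference in means among the 10 genes, a mean lower by 7.67 peaks in cKO (10.7 ± 2.31 against 3.00 ± 1.73, exact permutation p = 0.1, BH-adjusted p = 0.383). In Mesp1-Cre Ctrl the counts were 8, 2 and 3, of which replicate 1 equalled the lowest Tbx1-Cre Ctrl library. Along the gene body the cKO peaks were few: the map of peaks by library shows none in replicates 2 and 3 between the promoter and the downstream end of the gene.

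Notch3 (ENSMUSG00000038146.7, chr17:32257765-32303825, minus strand) encodes a receptor best known from vascular smooth muscle. Its counts were 5, 2 and 4 in Tbx1-Cre Ctrl, and both cKO and Mesp1-Cre Ctrl had 2, 1 and 2. The groups overlapped, and the difference of cKO from Ctrl, -2.00 peaks, gave p = 0.3 in the exact permutation test.

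Among ligands, Jag1 (ENSMUSG00000027276.7, chr2:136907192-136942380, minus strand), the Notch ligand known from Alagille syndrome and needed in the second heart field, held 5, 6 and 6 distal peaks in Tbx1-Cre Ctrl. The cKO libraries held 4, 0 and 3, all below the Ctrl libraries (2.33 ± 2.08 against 5.67 ± 0.577, exact permutation p = 0.1, BH-adjusted p = 0.383). The Mesp1-Cre Ctrl libraries held 6, 3 and 3. Jag2 (ENSMUSG00000002799.5, chr12:114146801-114167706, minus strand), a second Serrate-type ligand, held 8, 4 and 6 in Tbx1-Cre Ctrl, 3, 0 and 1 in cKO and 7, 2 and 4 in Mesp1-Cre Ctrl. Ctrl and cKO did not overlap there either (6 ± 2 against 1.33 ± 1.53, with the same p values). The Jag2 window takes in the TSS of 4 other protein-coding genes, Btbd6, Gm17723, Gpr132 and Nudt14, so its distal peaks may belong to any of them. When only peaks with the Jag2 TSS as their nearest coding TSS were counted, the difference shrank from -4.67 to -0.333 peaks and the groups overlapped (exact permutation p = 1). The Jag1, Hes1 and Hey1 windows hold no other protein-coding TSS.

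The Delta-type ligands had few distal peaks in any group. Dll1 (ENSMUSG00000014773.7, chr17:15504318-15513836, minus strand), a ligand of somites and neural tissue, held 2, 1 and 1 in Tbx1-Cre Ctrl and 1 in every cKO and Mesp1-Cre Ctrl library. Dll4 (ENSMUSG00000027314.6, chr2:119151520-119161698, plus strand), the ligand of arterial endothelium, held 4, 3 and 2 in Tbx1-Cre Ctrl, 2, 3 and 2 in cKO and 5, 3 and 3 in Mesp1-Cre Ctrl. At both genes the groups overlapped, with exact permutation p = 1 and 0.7 for cKO against Ctrl. Dll4 was the only one of the 10 with a higher mean in Mesp1-Cre Ctrl than in Tbx1-Cre Ctrl, by 0.667 peaks (p = 0.7 in the exact permutation test).

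Of the targets, Hes1 (ENSMUSG00000022528.7, chr16:30064470-30067882, plus strand) is a widely used Notch target that keeps progenitors undifferentiated. Its locus held 13, 8 and 9 distal peaks in Tbx1-Cre Ctrl, 5, 4 and 0 in cKO, and 6, 2 and 2 in Mesp1-Cre Ctrl. Both comparison groups lay wholly below Tbx1-Cre Ctrl (10 ± 2.65), cKO at 3.00 ± 2.65 and Mesp1-Cre Ctrl at 3.33 ± 2.31. Hes1 was the only gene of the 10 for which this held in the Mesp1-Cre comparison, and p was 0.1 in both exact permutation tests, with BH-adjusted p of 0.383 and 0.868. The gap was widest in cKO replicate 3, the shortest of all the lists, which held no distal peak within 50 kb of the gene.

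Hey1 (ENSMUSG00000040289.3, chr3:8663362-8667039, minus strand), a repressor of endocardial and arterial cells, held 5, 4 and 5 distal peaks in Tbx1-Cre Ctrl, 3, 2 and 3 in cKO and 4, 3 and 3 in Mesp1-Cre Ctrl. The Ctrl and cKO counts did not overlap (4.67 ± 0.577 against 2.67 ± 0.577, exact permutation p = 0.1, BH-adjusted p = 0.383). Hey2 (ENSMUSG00000019789.8, chr10:30552165-30562607, minus strand), which acts in ventricular muscle and arteries, held 2 in every Tbx1-Cre Ctrl library, 2, 2 and 1 in cKO and 2, 1 and 2 in Mesp1-Cre Ctrl, with overlap throughout.

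In all, 6 of the 10 genes had fewer distal peaks in every cKO library than in every Tbx1-Cre Ctrl library (Notch1, Notch2, Jag1, Jag2, Hes1 and Hey1) and 0 had more. Over the 17943 genes tested this held for 26.0% (fewer) and 0.0502% (more). The genes tested were not matched to the Notch loci in number of distal peaks, and separation is harder to reach where peaks are few. The count was 4 in place of 6 with windows of 10 kb, with only peaks whose nearest coding TSS was that of the gene, with 2 kb as the promoter distance or with the widest 75% of each list. The share over all genes is not given under these settings, so these counts cannot be set against it. Notch2 and Hes1 were among the 4 each time, and Hey1 had a difference of 0 in the 10 kb windows. All 10 Notch loci, and 90.7% of all genes, had a lower mean in cKO, with median differences of -2.67 and -1 peaks. The 4 genes without separation were Notch3, Dll1, Dll4 and Hey2, of which Dll1, Dll4 and Hey2 had Ctrl means of 3 or less. Against Mesp1-Cre Ctrl, 1 gene (Hes1) had fewer distal peaks in every Mesp1-Cre library and 0 had more, beside 11.1% and 0.397% of 18372 genes. That count was 5 without replicate 1 of Mesp1-Cre Ctrl and also 5 without replicate 2 of Tbx1-Cre Ctrl. Separation is easier to reach with fewer libraries, and no share over all genes is given for these reduced sets.

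**Figure D2:**
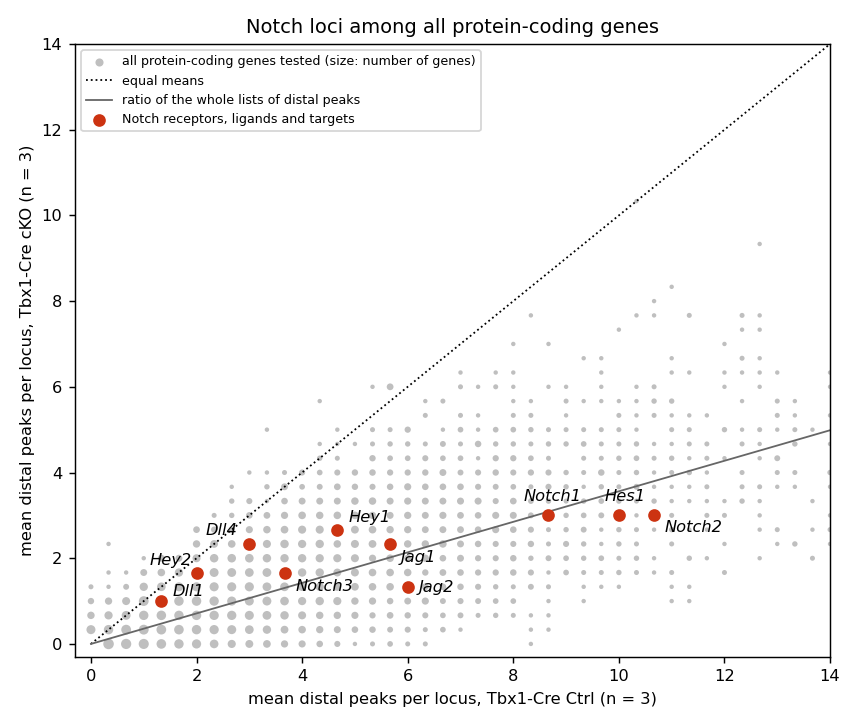
Mean distal peaks per locus in Tbx1-Cre Ctrl (x axis) and cKO (y axis), n = 3 libraries each, for the Notch genes (red) and all protein-coding genes tested (grey, larger points for more genes). The dotted line marks equal means, the solid line the ratio of the whole lists, 35.6%, and 90 genes with a mean above 14 are not drawn. All 10 Notch genes lie below the dotted line, and 4 of them lie below the solid line.

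Because the cKO lists were shorter, each count was also divided by the number of distal peaks of its own list. On this scale, in distal peaks per 10000 distal peaks of the list, 0 of 10 Notch genes were lower in every cKO library, beside 7.77% of all genes. Dll1, Dll4, Hey1 and Hey2 were higher in every cKO library, 4 of 10 beside 15.1%. Dll4 stood at 0.990 ± 0.310 in Tbx1-Cre Ctrl and 2.34 ± 0.861 in cKO, and Hey1 at 1.54 ± 0.0834 and 2.69 ± 1.22 (exact permutation p = 0.1 and BH-adjusted p = 0.437 for both). The raw counts of Dll1, Dll4 and Hey2 overlapped between the groups, and those of Hey1 were lower in every cKO library. None of these 4 genes had a higher raw mean in cKO. Among the widest peaks in lists of equal length, Dll1, Dll4 and Hey1 also had a higher cKO mean, and Hey2 did not. Why the scaled values were higher was not tested. Notch1, Notch2, Jag2 and Hes1 stayed lower on average in cKO, by 0.150 to 0.850 per 10000, with overlap between the groups. Thus the median over the 10 genes turned from -2.67 peaks to 0.440 per 10000. When each list was cut to its 19772 widest peaks, the length of the shortest list, the difference summed over the 10 loci was -2.67 peaks in place of -33.7, and 0 of 10 genes were lower in every cKO library. The share over all genes is not given for lists of that length. For Mesp1-Cre Ctrl against Tbx1-Cre Ctrl on this scale, Hes1 was lower in every library, at 1.73 ± 0.505 against 3.28 ± 0.660, which was 1 of 10 genes beside 6.07%. Dll4 (2.09 ± 0.356 against 0.990 ± 0.310) and Hey2 (0.949 ± 0.271 against 0.663 ± 0.0534) were higher in every library, 2 of 10 beside 12.4%. For Hes1 and Dll4 in Mesp1-Cre cells, the direction was therefore the same with raw and scaled counts, with exact permutation p = 0.1 on the scaled counts and a BH-adjusted p of 0.543.

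At these 10 genes promoters differed less than distal regions. The genes held 14, 13 and 11 promoter peaks in Tbx1-Cre Ctrl, 12, 8 and 7 in cKO and 13, 9 and 12 in Mesp1-Cre Ctrl. The cKO mean was 71.1% of the Ctrl mean, a ratio that was not taken over all genes. Over all genes, a mean of 60.8% of promoters held a peak in Tbx1-Cre Ctrl and 54.6% in cKO. The promoter length covered by peaks had a lower mean in cKO for 95.5% of the 14558 genes tested. There were 6 promoters, those of Notch1, Notch2, Notch3, Jag1, Hey1 and Hey2, with a peak in all 9 libraries, as for 48.1% of all protein-coding genes. The Notch2, Jag1, Hey1 and Hey2 promoters held exactly 1 peak in every library. The covered length, counted in bp of the promoter windows that lay in a peak, was steady at Hey1, with 1154, 1028 and 1216 bp in Tbx1-Cre Ctrl, 995, 1065 and 908 bp in cKO and 1098, 1070 and 1144 bp in Mesp1-Cre Ctrl. At Notch2 it was 901, 1001 and 1259 bp, 1027, 1094 and 994 bp, and 1192, 883 and 944 bp in the same order of groups. At both genes the cKO and the Mesp1-Cre Ctrl values overlapped with those of Tbx1-Cre Ctrl. At Hey1 every cKO library lay below every Mesp1-Cre Ctrl library, but cKO and Mesp1-Cre Ctrl were not compared over all genes.

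**Figure D3:**
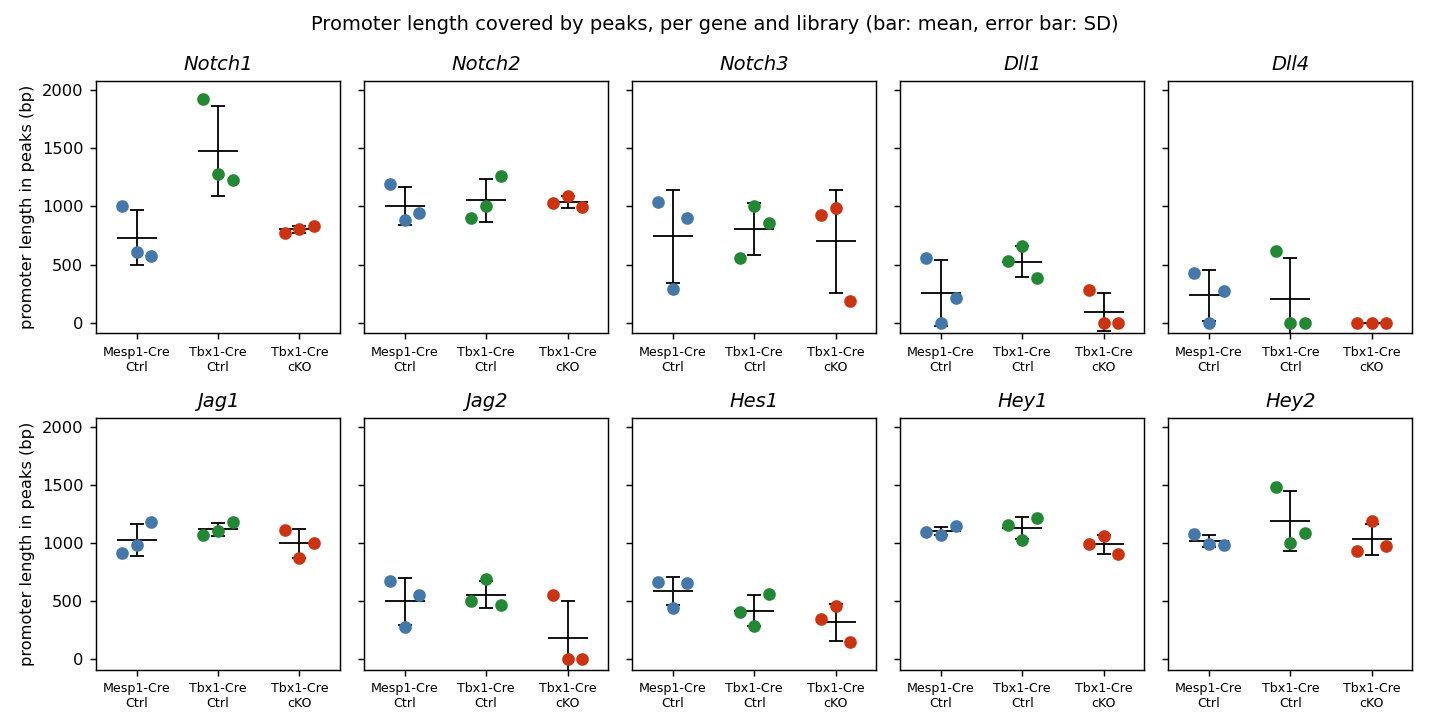
Promoter length within 1 kb of a coding TSS covered by peaks (bp, y axis) for each gene and library (points), with mean (bar) and SD (error bar). Notch1 in Tbx1-Cre Ctrl, with 1229 to 1926 bp, lies above all other libraries of that gene, and Dll4 in cKO lies at 0 in all 3 libraries.

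Of the 4 promoters without a peak midpoint within 1 kb of the TSS in at least 1 library, 3 were those of ligands. The other was Hes1 in cKO replicate 3, where a peak centred further upstream still covered 150 bp of the promoter. Dll1 had a covered promoter length of 529, 657 and 387 bp in Tbx1-Cre Ctrl and of 284, 0 and 0 bp in cKO, with no overlap between the groups (exact permutation p = 0.1, BH-adjusted p = 0.25). Dll4 had 613, 0 and 0 bp in Tbx1-Cre Ctrl, 0 bp in all cKO libraries and 429, 0 and 273 bp in Mesp1-Cre Ctrl. At Jag2 it was 504, 687 and 471 bp in Tbx1-Cre Ctrl, 554, 0 and 0 bp in cKO and 672, 278 and 553 bp in Mesp1-Cre Ctrl. So replicates 2 and 3 of cKO held no peak at the Dll1 and Jag2 promoters, while replicate 1, the longest cKO list, held one at both. Dll1 also had 560, 0 and 209 bp in Mesp1-Cre Ctrl. Over the 4 ligands a mean of 83.3% of promoters held a peak in Tbx1-Cre Ctrl, 83.3% in Mesp1-Cre Ctrl and 41.7% in cKO, beside 60.8%, 58.3% and 54.6% of all genes. The receptors stood at 100% in each group, and the targets at 100%, 100% and 88.9%.

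Notch1 has 4 coding TSS in the annotation, more than the other 9 genes, which have 1 each. Its covered promoter length was 1926, 1278 and 1229 bp in Tbx1-Cre Ctrl, 768, 805 and 833 bp in cKO and 1003, 608 and 577 bp in Mesp1-Cre Ctrl. Both other groups lay below Tbx1-Cre Ctrl in every library (exact permutation p = 0.1, BH-adjusted p = 0.25 for cKO and 0.550 for Mesp1-Cre Ctrl). At the Hes1 promoter the covered length was 409, 290 and 560 bp in Tbx1-Cre Ctrl, 344, 459 and 150 bp in cKO and 663, 444 and 656 bp in Mesp1-Cre Ctrl. With a mean of 588 ± 124 bp against 420 ± 135 bp, Hes1 was one of the 2 genes, beside Dll4, with more covered promoter in Mesp1-Cre Ctrl than in Tbx1-Cre Ctrl (p = 0.2 in the exact permutation test). Jag1, Hey2 and Notch3 spanned 1068 to 1180, 1000 to 1480 and 559 to 1002 bp in Tbx1-Cre Ctrl, and 873 to 1116, 935 to 1187 and 184 to 985 bp in cKO. In the cKO comparison 2 of 10 genes (Notch1 and Dll1) had less covered promoter in every library, beside 40.0% of the 14558 genes tested, and in the Mesp1-Cre comparison 1 of 10 (Notch1), beside 17.6%. The mean was lower in cKO at all 10 promoters, with a median difference of -150 bp beside -200 bp over all genes. The direction of the median turned when lengths were scaled to the list. In bp per Mb covered by the list, the cKO mean was higher at 7 of the 10 promoters, by 10.1 at Notch1, and the median difference was 16.1. Neither value was taken over all genes. Dll1, Dll4 and Jag2 kept a lower cKO mean on that scale.

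The Hes1 and Hey1 promoters are shown because RBPJ binds DNA at the Hes1 promoter, the textbook Notch-responsive element, and because they contrast in how far peaks covered them. Each run is the 250 bases before the coding TSS from the NCBIM37 (mm9) genome, 5′ to 3′ in the direction of transcription, Hes1 from chr16:30065176-30065425 (plus strand) and Hey1 from chr3:8667040-8667289 (minus strand). Capitals mark matches to TGGGAA, the RBPJ core. GGTGTGA for T-box factors, TGTTTAC for forkhead factors and AGATAA for GATA factors were searched as well, on both strands.

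Hes1 promoter: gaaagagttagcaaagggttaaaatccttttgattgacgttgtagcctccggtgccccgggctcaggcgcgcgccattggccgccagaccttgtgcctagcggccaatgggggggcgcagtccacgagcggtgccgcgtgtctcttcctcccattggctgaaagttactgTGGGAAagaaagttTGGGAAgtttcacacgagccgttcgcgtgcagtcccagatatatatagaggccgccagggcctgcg

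Hey1 promoter: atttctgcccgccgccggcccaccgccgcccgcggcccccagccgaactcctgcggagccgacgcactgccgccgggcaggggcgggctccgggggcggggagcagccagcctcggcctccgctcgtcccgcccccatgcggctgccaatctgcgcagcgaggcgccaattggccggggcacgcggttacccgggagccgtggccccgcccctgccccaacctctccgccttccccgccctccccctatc

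The Hes1 run holds 2 matches to TGGGAA in the forward direction, 80 to 75 and 66 to 61 bases upstream of the TSS, and no match to the other motifs. The Hey1 run, with a GC content of 78.4% against 58.4% for Hes1, holds no match to any of the 4. Of the 250-base runs upstream of all 22359 protein-coding genes, 21.0% hold TGGGAA, 3.18% the T-box, 2.71% the forkhead and 9.30% the GATA motif. The 250 Hey1 bases lay entirely in a peak in all 9 libraries. Of the 250 Hes1 bases, peaks covered 12, 46 and 162 in Tbx1-Cre Ctrl, 61, 31 and 0 in cKO and 250, 91 and 135 in Mesp1-Cre Ctrl. The bases with the 2 matches lay in a peak in Mesp1-Cre Ctrl replicates 1 and 2 and in no Tbx1-Cre library.

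To see which sites made up the counts, overlapping peaks of the 9 lists were merged into regions. The Notch loci held 81 distal regions of 55122 in the genome. By position, 48 were intergenic, 26 had their midpoint in the member gene itself and 7 in another gene. Receptor loci differed in layout from target loci, with 21 of 36 regions inside the receptor gene against 1 of 18 inside the target gene, and the target genes are short. The member was the nearest protein-coding gene, by TSS, for 59 of the 81. The distance from a region to the nearest coding TSS of its member ranged from 1565 to 184725 bp, with a median of 31064 bp.

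**Figure D4:**
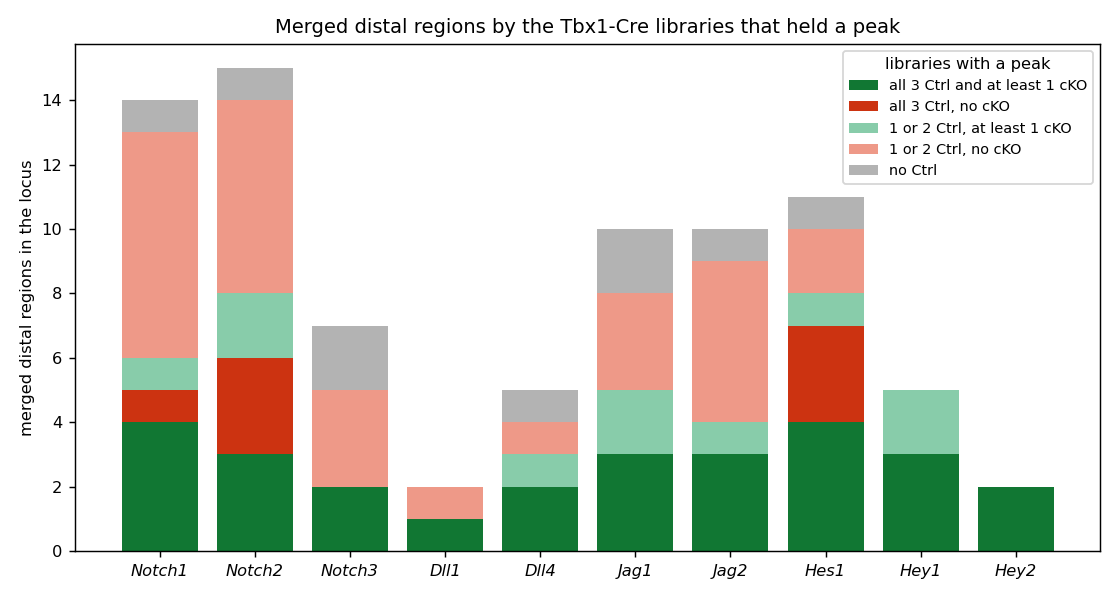
Number of merged distal regions (y axis) in each Notch locus, stacked by the Tbx1-Cre libraries that held a peak there. Regions with a peak in all 3 Ctrl libraries and in no cKO library (dark red) are found at Notch2 and Hes1, with 3 each, and at Notch1, with 1, and the Hey1 and Hey2 loci hold no region that was without a cKO peak.

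A peak in all 3 Tbx1-Cre Ctrl libraries was found at 34 of the 81 regions (42.0%, beside 28.7% of all distal regions). Of these 34, 27 also held a peak in at least 1 cKO library (33.3% of the 81, beside 20.7%) and 7 in none. Those 7 were 8.64% of the distal regions in Notch loci, and the same pattern held for 7.96% of all distal regions. Without replicate 1 of cKO their number was 16, and without replicate 2 of Tbx1-Cre Ctrl it was 14. The pattern is easier to meet with fewer libraries, and its share over all distal regions is not given for these reduced sets. A further 28 regions were called in only 1 or 2 Ctrl libraries and in no cKO library. With the 7 they made 35 regions with a Ctrl peak and no cKO peak (43.2%, beside 53.3% of all distal regions). A cKO peak with no Tbx1-Cre Ctrl peak was held by 2 regions (2.47%, beside 2.66%), 1 at Notch1 and 1 at Notch3. Neither was called in all 3 cKO libraries (0 regions, beside 0.0127%). No region was called in all 3 Mesp1-Cre libraries and no Tbx1-Cre Ctrl library (beside 0.929%). Of the 81, 26 were called in a single library (32.1%, beside 37.8%).

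The 7 regions with a peak in every Tbx1-Cre Ctrl library and in no cKO library lay at Notch1, Notch2 and Hes1. At Hes1, 1 was intergenic, 21209 bp downstream of the TSS (chr16:30086279-30086992). It had peaks of 534, 484 and 364 bp in Tbx1-Cre Ctrl and none in Mesp1-Cre Ctrl, and the nearest cKO peak was 9552 bp away. Another lay 3090 bp downstream of the TSS, past the end of the gene (chr16:30068236-30068796), with peaks of 527, 410 and 501 bp in Tbx1-Cre Ctrl and of 262 bp in Mesp1-Cre Ctrl replicate 3. The nearest cKO peak was 1597 bp away. The last of the 3 lay 45059 bp upstream (chr16:30019874-30020860), in an exon of the transcript 4632428C04Rik. There the peaks were 873, 431 and 503 bp long in Tbx1-Cre Ctrl, and 239 bp in Mesp1-Cre Ctrl replicate 1.

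The 3 Notch2 regions all lay in introns of the gene. The first was 29807 bp downstream of the TSS (chr3:97847038-97847499) with peaks of 374, 270 and 321 bp in Tbx1-Cre Ctrl and 250 bp in Mesp1-Cre Ctrl replicate 1. The second, at 50031 bp (chr3:97867108-97867877), had 652, 596 and 654 bp, and 370 bp in Mesp1-Cre Ctrl replicate 3. The last, at 111502 bp (chr3:97928644-97929283), had 549, 640 and 560 bp and no peak in Mesp1-Cre Ctrl. The nearest cKO peaks were 16752, 36822 and 20009 bp away. The Notch1 region (chr2:26349947-26350478) lay in an intron, 9130 bp downstream of the nearest coding TSS of the gene, with narrower peaks of 327, 200 and 438 bp and none in Mesp1-Cre Ctrl. Its nearest cKO peak was 6813 bp away. So 3 of the 7 regions were without a Mesp1-Cre peak (3.70% of the 81, beside 3.85% of all distal regions), the other 4 held one in a single Mesp1-Cre library, and none held one in all 3. The count of 3 was 7 without cKO replicate 1 or Tbx1-Cre Ctrl replicate 2, and 5 without Mesp1-Cre Ctrl replicate 1 or 3. For these reduced sets too, no share over all distal regions is given.

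**Figure D5:**
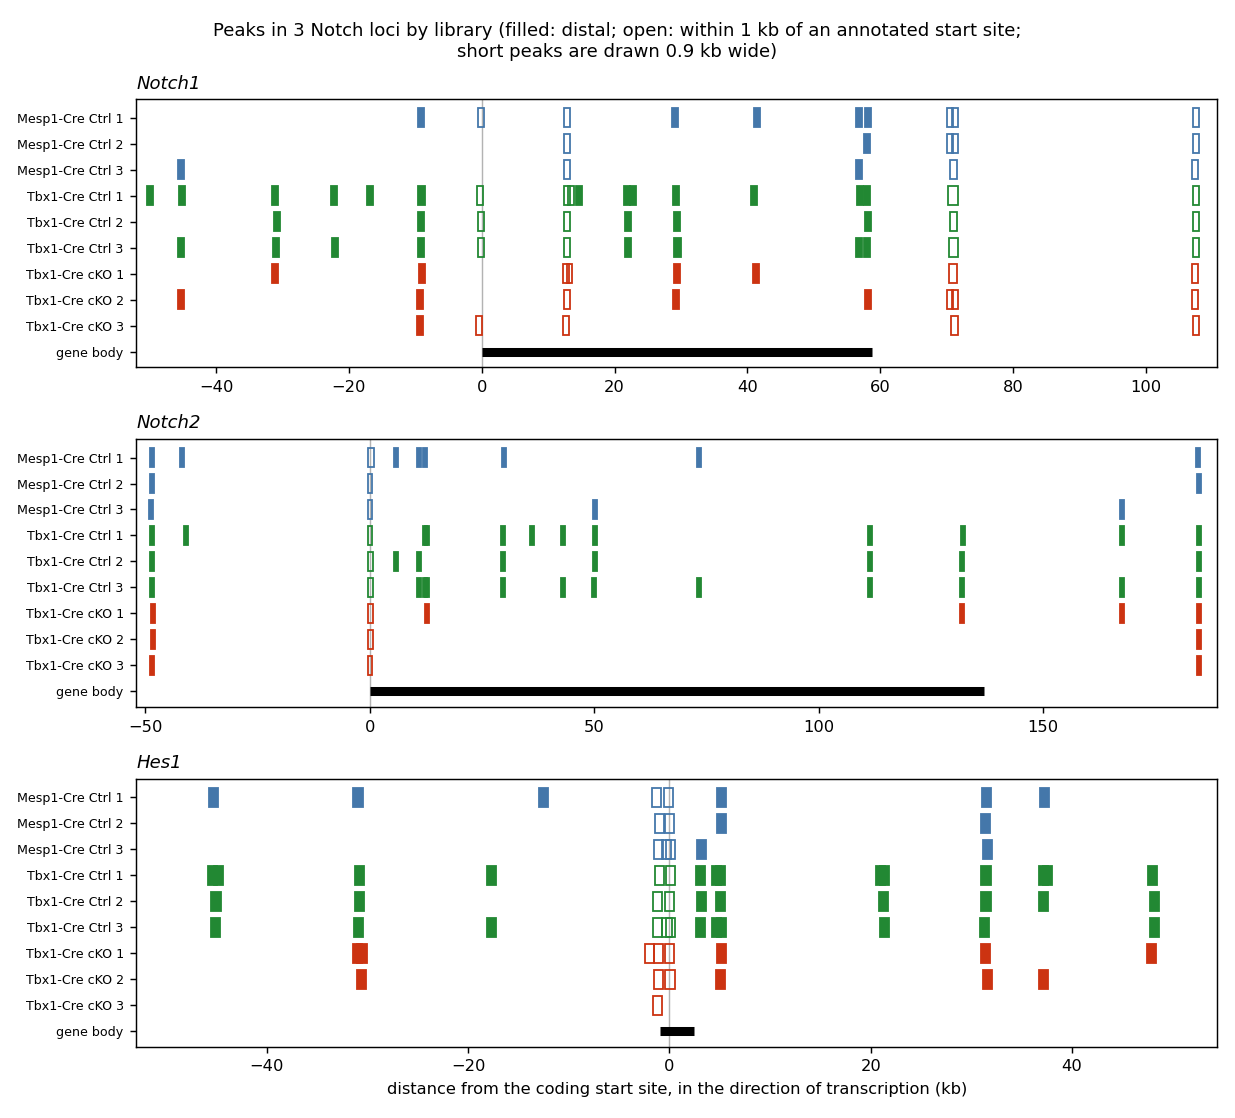
Peaks of each library (rows) at Notch1, Notch2 and Hes1 by distance from the most upstream coding TSS in the direction of transcription (kb, x axis). Filled boxes are distal peaks, open boxes lie within 1 kb of an annotated TSS, the black bar is the gene body, and peaks shorter than 0.9 kb are drawn 0.9 kb wide. The Notch2 introns and the sequence on both sides of Hes1 hold regions with a peak in every Tbx1-Cre Ctrl library and no cKO library. The nearest cKO peak is 1597 bp away at the closest of them. In cKO replicate 3, the shortest list, there is no distal peak at Hes1.

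The sequences of the 3 regions without a Mesp1-Cre or cKO peak are given because they were called in the Tbx1-Cre Ctrl libraries alone. Each is the middle, at most 300 bases, of the stretch that lay in a peak in all 3 Tbx1-Cre Ctrl libraries, plus strand of NCBIM37 (mm9): Notch2 intron at chr3:97928818-97929117, Hes1 downstream at chr16:30086663-30086962 and Notch1 intron at chr2:26350152-26350230. Capitals mark matches to the motifs named above.

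Notch2 intron region: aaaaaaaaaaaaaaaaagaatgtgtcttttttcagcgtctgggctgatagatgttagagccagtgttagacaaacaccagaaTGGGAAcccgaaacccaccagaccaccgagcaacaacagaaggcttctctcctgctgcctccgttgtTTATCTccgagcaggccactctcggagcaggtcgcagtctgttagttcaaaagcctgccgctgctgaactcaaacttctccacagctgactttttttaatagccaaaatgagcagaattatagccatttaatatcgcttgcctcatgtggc

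Hes1 downstream region: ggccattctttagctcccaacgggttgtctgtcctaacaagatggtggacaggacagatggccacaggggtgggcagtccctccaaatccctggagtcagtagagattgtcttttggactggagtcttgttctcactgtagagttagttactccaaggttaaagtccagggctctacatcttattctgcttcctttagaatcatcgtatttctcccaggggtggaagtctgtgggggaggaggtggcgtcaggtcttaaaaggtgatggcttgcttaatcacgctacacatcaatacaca

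Notch1 intron region: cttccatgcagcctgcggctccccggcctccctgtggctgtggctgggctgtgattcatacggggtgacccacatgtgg

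The Notch2 run holds 1 forward match to TGGGAA and 1 reverse match to AGATAA, which reads TTATCT on the strand shown. The Hes1 and Notch1 runs, of 300 and 79 bases, hold no match to any of the 4 motifs, and none of the 3 holds GGTGTGA. The windows of 300 bases centred on the region midpoints, which differ from the runs, do hold matches there, 1 to TGGGAA and 1 to TGTTTAC at the Hes1 region and 1 to TGGGAA at the Notch1 region. In such midpoint windows, TGGGAA was present in 30 of the 81 distal regions of Notch loci (37.0%) and in 28.8% of all distal regions. The T-box motif was present in 7 (8.64%) beside 4.23%, the GATA motif in 14 (17.3%) beside 15.2% and the forkhead motif in 4 (4.94%) beside 5.45%. None of the 7 regions with the T-box letters was among the 7 called in every Tbx1-Cre Ctrl library and no cKO library. These are matches of letters and say nothing of binding.

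Peaks in all 9 libraries were found at 5 distal regions, 6.17% of those in Notch loci beside 5.99% of all distal regions, 1 each at Dll4, Hey1, Notch2, Hey2 and Dll1. Their number was 2 in lists of equal length, 3 with the widest 75% of each list and 1 with windows of 10 kb. The number of regions in the loci changes with these settings too, and no share over all distal regions is given for them. The widest was 12193 bp downstream of the Dll4 TSS (chr2:119163261-119164166, intergenic), with peaks of 678, 751 and 761 bp in Tbx1-Cre Ctrl, 685, 789 and 785 bp in cKO and 808, 674 and 751 bp in Mesp1-Cre Ctrl. The Hey1 region lay 18291 bp upstream (chr3:8684879-8685782), with 780, 742 and 879 bp, 658, 467 and 736 bp, and 665, 698 and 797 bp in the same order. At the Dll4 region the widths overlapped between the groups. At the Hey1 region every cKO peak was narrower than every Tbx1-Cre Ctrl peak, and the Mesp1-Cre widths overlapped with both. Peaks were narrower over the whole cKO lists as well, with medians of 444, 446 and 455 bp against 464, 504 and 514 bp in Tbx1-Cre Ctrl. How many of all regions separate by width was not counted. The Notch2 region lay 48467 bp upstream (chr3:97768607-97769381) in an intron of Gm5544, with peaks of 199 to 616 bp. The Hey2 region lay 31712 bp downstream (chr10:30530531-30531259), nearer to the TSS of Ncoa7 than to that of Hey2, with 255 to 711 bp. The Dll1 region lay 32666 bp downstream (chr17:15479921-15480627), with 271 to 634 bp. Notch1, Notch3, Jag1, Jag2 and Hes1 had no distal region called in all 9 libraries.

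A list of 31 further pathway genes was examined in the same way, from ligand-like genes and Fringe glycosyltransferases to secretase subunits and nuclear cofactors. Of these, 27 could be tested for distal peaks in the cKO comparison. Of the 27, 6 had fewer in every cKO library and 0 had more, beside 26.0% and 0.0502% of all genes. The mean was lower in 96.3% beside 90.7%, with median differences of -1.33 and -1 peaks. Per 10000 distal peaks of the list the direction turned: 0 of the 27 were lower in every cKO library beside 7.77%, 2 (Rfng and Dtx1) were higher beside 15.1%, and the mean was higher in 55.6% beside 48.7%. Lfng, a Fringe enzyme that modifies Notch receptors, held 5, 4 and 5 distal peaks in Tbx1-Cre Ctrl, 1, 2 and 1 in cKO and 2 in each Mesp1-Cre library. Heyl, a relative of Hey1 and Hey2, held 6, 4 and 4 against 3, 1 and 2 in cKO, and Dlk1, which encodes a Delta-like protein, 10, 7 and 7 against 3, 4 and 2. The coactivator genes Maml3 and Maml1 held 32, 17 and 22 against 15, 9 and 9, and 2, 2 and 3 against 1, 1 and 0. Psenen, a subunit of the secretase that cuts Notch, held 5, 3 and 2 against 1, 1 and 1. In Mesp1-Cre Ctrl, Lfng and Psenen (1 in each library) were the 2 of 28 with fewer distal peaks in every library, beside 11.1% of all genes. At the promoter, 17 of the 31 held a peak in all 9 libraries (54.8%, beside 48.1% of all genes), among them Rbpj, the gene of the DNA-binding partner of the receptors. Of 27 tested, 3 had less covered promoter in every cKO library (Hes6, Psenen and Numbl), beside 40.0% of all genes. In the Mesp1-Cre comparison the same 3 had less in every library, beside 17.6%. There 1 gene, Heyl, had more, at 488, 240 and 204 bp against 0, 200 and 0 bp, beside 0.571% of all genes. Its separation rests on 204 against 200 bp, both close to the narrowest peaks of the lists, 199 and 200 bp. Over these measures the lowest BH-adjusted p of these genes was 0.25 in the cKO comparison and 0.543 in the Mesp1-Cre comparison.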

How the data were processed

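ATAC-seq peak lists of 9 libraries (3 per group, labels of the samples) were analysed. As the study's methods state, the authors aligned reads to mm9 with Bowtie2 2.3.4.3 (submitters' processing notes), kept unique concordant pairs, removed duplicates and mitochondrial reads, and called peaks with MACS2 in each library separately. The deposited values are chromosome, start and end, positions in bp with no score, height or count, so the count model of the study could not be run. The last peaks ended at most 247 bp past an NCBIM37 (mm9) chromosome end, and the Gencode vM1 annotation of that build was used. The Mesp1-Cre lists have a narrowest peak of 199 bp and 2 chrM intervals each, despite the stated removal of mitochondrial reads, and the Tbx1-Cre lists 200 bp and 0. Whether the 2 sets were processed alike was not tested. Processing and lineage therefore cannot be told apart between Mesp1-Cre and Tbx1-Cre lists.

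Genes without a distal peak (or covered promoter) in the compared libraries were not tested. Differences in means were compared by an exact two-sided permutation test (20 relabellings, smallest p 0.1), BH-adjusted over all genes tested. The 2 comparisons share the Tbx1-Cre Ctrl libraries. Libraries are pools of embryos, and p-values measure the spread between them. Regions were peaks merged at 1 bp of overlap. All 10 genes are described in every library, pathway genes by name where the groups did not overlap, regions by the patterns given, and 3 Tbx1-Cre Ctrl-only regions, widest first, with 2 promoters for sequence. The genes, lists and rules were chosen with earlier results of these data known. Alternatives covered window, promoter distance, peak assignment, list length and single libraries. Dividing by distal peaks of the list, and using coding transcripts only to define distal, were added after seeing the data. Python 3.11.15, numpy 2.4.6, pandas 2.3.3, matplotlib 3.10.9 and, for tests on simulated data, scipy 1.17.1 and bedtools 2.31.1 were used.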

Additional observations from a re-analysis of the deposited data

How the results depend on the processing

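Read depth is unknown, and the exact permutation test used here cannot go below p = 0.1 with 3 libraries against 3, so the values below concern direction and size. Differences are cKO minus Tbx1-Cre Ctrl or Mesp1-Cre Ctrl minus Tbx1-Cre Ctrl. Of the single-gene values under an alternative, 478 did not change sign and 62 reversed, 46 of them under the 3 ways of taking out list length. In the cKO comparison the 6 genes without overlap, the median of -2.67 and the sum of -33.7 distal peaks moved most when list length was taken out. The 6 genes were 4 with windows of 10 kb, the nearest coding TSS as the rule, a promoter distance of 2 kb or the widest 75% of each list, and 7 with coding transcripts only. The cause of the shorter cKO lists was not tested. Counts of genes or regions in this section have no share over all genes or all regions beside them.

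With counts per 10000 peaks of the list, the cKO difference was 0.139 for Dll1, 0.339 for Dll4, 0.126 for Hey1 and 0.243 for Hey2 distal peaks. The sum was -2.99 and 2 genes were lower in every library. In bp per covered Mb, promoter length differed by 10.1 for Notch1, 45.8 for Notch2, 22.1 for Notch3, 39.5 for Jag1, 9.09 for Hes1, 38.3 for Hey1 and 40.5 for Hey2, with a median of 16.1. For Mesp1-Cre Ctrl the distal values were 0.0355 for Dll1, 0.0333 for Hey1 and 0.0750 for Hey2. The promoter values were 18.8 for Notch2, 9.61 for Notch3, 19.5 for Jag1, 6.70 for Jag2, 23.4 for Hey1 and 15.5 for Hey2, with a median of 12.6.

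Per 10000 distal peaks of the list, chosen after seeing the data, the cKO differences were 0.498 for Notch3, 0.571 for Dll1, 1.35 for Dll4, 0.382 for Jag1, 1.16 for Hey1 and 0.894 for Hey2, with a median of 0.440, a sum of 2.22 and 0 genes lower in every library. The Mesp1-Cre values were 0.179 for Dll1, 0.334 for Jag1, 0.322 for Jag2, 0.431 for Hey1 and 0.287 for Hey2, with a median of 0.233 and a sum of -1.91.

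Among the 19772 widest peaks of each list, the cKO difference in distal peaks was 0.667 for Notch3, 1 for Dll1 and 0.333 for Dll4 and Hey1, with a sum of -2.67 and 0 genes lower in every library. Promoter length differed by 381 bp for Notch3, 102 bp for Jag2 and 155 bp for Hes1. In the Mesp1-Cre comparison distal peaks differed by 0.333 for Notch3, Hey1 and Hey2 and by 1 for Dll1, with a sum of -4 and 2 genes lower in every library, and promoter length by 425 bp for Notch3, 187 bp for Dll1, -204 bp for Dll4 and 501 bp for Jag2. Regions called in all 9 libraries numbered 2, those in all Tbx1-Cre Ctrl and no cKO libraries 1 (and 0 with no Mesp1-Cre peak), those in all Mesp1-Cre and no Tbx1-Cre Ctrl libraries 2 and those in all cKO and no Tbx1-Cre Ctrl libraries 1. Keeping the widest 75% of each list gave 3 regions in all 9 libraries, 11 in all Tbx1-Cre Ctrl and no cKO libraries and 8 of these without a Mesp1-Cre peak. It also gave 3 genes lower in every Mesp1-Cre library and Mesp1-Cre promoter differences of 85.3 bp for Notch3, -204 bp for Dll4 and 18.7 bp for Jag2.

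A window of 10 kb lowered the cKO sum to -18.7 and the regions in all 9 libraries to 1. With that window, with any overlap of 1 bp, with the nearest coding TSS as the rule or with coding transcripts only, 2 genes in place of 1 were lower in every Mesp1-Cre library.

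Leaving out 1 library at a time, the cKO promoter difference ranged from -91.7 to 87.3 bp for Notch2 and from -251 to 150 bp for Notch3. The Mesp1-Cre promoter difference ranged from -72.5 to 234 bp for Dll4, -140 to 55.3 bp for Notch2, -212 to 166 bp for Notch3, -138 to 58.5 bp for Jag2 and -81 to 13 bp for Hey1, with a median from -139 to 1.33 bp. The number of genes lower in every Mesp1-Cre library ranged from 1 to 5. Regions in all Tbx1-Cre Ctrl and no cKO libraries ranged from 7 to 16, those of them without a Mesp1-Cre peak from 3 to 7 (7 without cKO replicate 1 or Tbx1-Cre Ctrl replicate 2, 5 without Mesp1-Cre Ctrl replicate 1 or 3), and those with all Mesp1-Cre peaks from 0 to 3, the latter without cKO replicate 1.

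The libraries carry replicate numbers but no source says that a number marks a shared litter or day. The deviations of same-numbered Tbx1-Cre Ctrl and cKO libraries from their group means correlated at 0.166, -0.00571 and 0.0998 over genes, and Tbx1-Cre Ctrl replicate 2 correlated best with cKO replicate 3 (0.115). With the number as a replicate block, 7 genes in place of 6 were lower in all 3 cKO pairs, and 6 in place of 1 in all 3 Mesp1-Cre pairs. The smallest p that a sign-flip test of 3 pairs allows is 0.25. Lower in all pairs is a looser rule than no overlap, and its share over all genes is not given. The mean was lower for 90.7% of all genes in cKO and for 73.2% in Mesp1-Cre Ctrl.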
